A study of Homo sapiens with 4 samples.

Results

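In Hep3B cells, 119 of 21212 genes gave a signal at least 1.5-fold higher than in mock cells with each of 3 hairpins against UNC50. These 119 genes were chosen by the same measured values that are described here, so their height over the mock array is a property of the choice and carries no test. A gene was eligible when its probe was well above background on all 4 arrays, called bright below, and was represented by the bright probe with the highest mean level. In all 121 genes met the limits, which is 0.57% of the genes measured, and 2 of them are not analysed here. By comparison 100 genes were at least 1.5-fold lower with every hairpin, or 0.471%.

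Hep3B is a human hepatocellular carcinoma line. The study asked what UNC50, a membrane protein of the Golgi apparatus and the inner nuclear membrane, does in liver cancer cells. Cells were transfected with pLKO.1 plasmids, and both mock and knockdown cells went through puromycin selection at 1 µg/ml. The control plasmid shR-MOCK and the hairpins shR-467, shR-554 and shR-749 had 1 array each, and the hairpins were aimed at 467, 554 and 749 bp of the UNC50 transcript. The 3 hairpins are different reagents against 1 gene, so the SD over them (n = 3) includes effects of a single hairpin. With 1 mock array, how far control cultures vary is unknown. No exact permutation test of 1 array against 3 can give a p below 0.25. All arrays shared 1 slide and 1 scan.

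UNC50 itself stood at 24.0% of mock with shR-467, at 13.7% with shR-554 and, for shR-749, at 18.7%. All 10 of the hepatocyte markers looked up, among them ALB, AFP and HNF4A, were well above background on every array, as were 1 of 6 fibroblast, 2 of 5 endothelial and 4 of 5 leukocyte markers, with the leukocyte signal carried by CD68 and CD14. COL1A1, COL3A1, VWF and KDR were well above background on no array, and CD3E on the mock array alone. As multiples of each array's 75th percentile, the summed signal of the fibroblast list was 0.188 on the mock array and 0.277 to 0.305 with the hairpins, and that of the endothelial list 0.243 against 0.261 to 0.370. The leukocyte sum was 4.68 on the mock array and 4.46 to 6.05 with the hairpins, below mock with shR-554. The hepatocyte sum was 547 on the mock array and 655 to 789 with the hairpins, and it includes 2 of the genes described here, APOA1 and TTR. The part of these lists in the values below was not tested, and in bulk RNA a different share of a cell type and a different amount of RNA per cell cannot be told apart.

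Hepatocytes are specialised for secretion: they load lipids onto apolipoproteins and send fibrinogen, transthyretin, hemopexin and complement through the endoplasmic reticulum and the Golgi into the blood. Hepatoma lines keep much of this programme and add fetal genes such as LIN28B. Levels are given below as multiples of the 75th percentile of each array, and differences as log2 of hairpin over mock. The levels of 2 different probes are not comparable.

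Of the 119 members, 70 carry the symbol of a protein-coding gene in RefSeq, 8 that of a non-coding RNA or pseudogene, 25 are the array's own long intergenic non-coding RNA (lincRNA) loci and 16 matched no RefSeq gene. These shares, 58.8%, 6.72%, 21.0% and 13.4%, lay beside 62.5%, 3.70%, 18.99% and 14.8% among all genes measured. The median of the members' mean difference was 0.99, against 0.00 for all genes. The median SD over the 3 hairpins was 0.21 for the members and 0.22 for all genes. In 12 members the highest and lowest hairpin differed by 2-fold or more, and in 27 no hairpin reached 2-fold. Another 27 members were at least 2-fold higher with every hairpin, which is 0.127% of the genes measured. In 38 members shR-467 gave the highest value, in 38 members shR-554 did, and in 43 shR-749. The order shR-554, shR-749, shR-467, which follows the depth of the UNC50 knockdown, was found in 25 members, and the 6 possible orders held 12 to 30 each. Taken alone, the hairpins put 6.11% (shR-467), 4.5% (shR-554) and 5.25% (shR-749) of all genes at 1.5-fold or more.

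**Figure D1:**
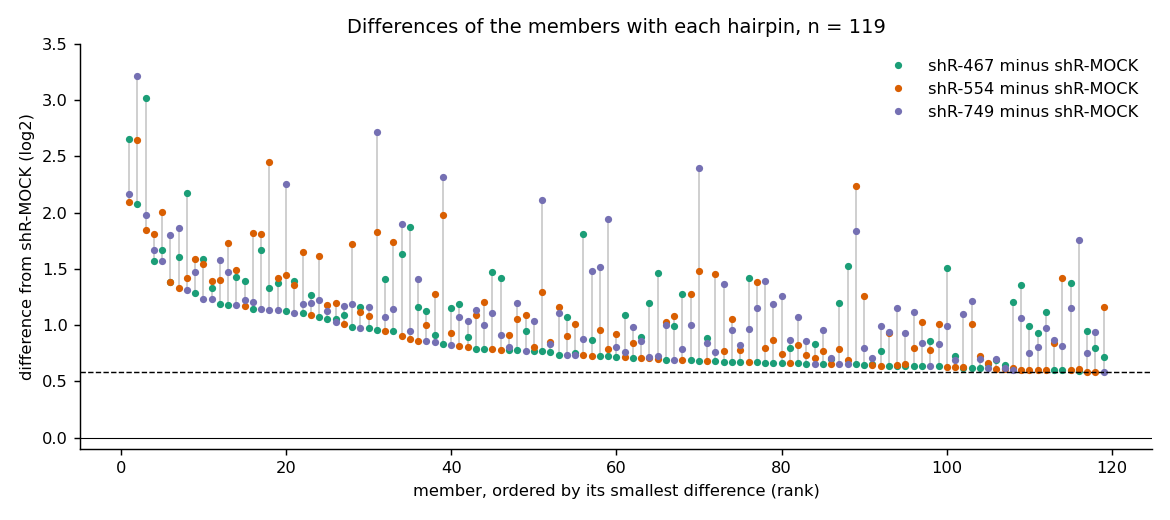
Difference from the mock array (log2, vertical axis) of each of the 119 members with each hairpin, ordered by the smallest of the 3 values (horizontal axis). Grey lines join the 3 values of a gene and the dashed line marks 1.5-fold. The smallest difference reached 2.09 in the first gene and 0.59 in the last, and the hairpin with the highest value changed from gene to gene.

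Several members encode proteins that the liver secretes. APOA1, the main protein of high density lipoprotein, stood at 20.4 times the 75th percentile in mock cells. It reached 52.0 with shR-467, 30.9 with the second hairpin, shR-554, and 42.5 with shR-749 (mean difference 1.01 ± 0.38, SD, n = 3), and the 3 values given for each gene below keep this order of hairpins. A second APOA1 probe, printed in 10 spots, gave 1.49, 0.73 and 1.17 in the same order, so both probes were lowest with shR-554. TTR, which carries thyroxine and retinol-binding protein in plasma, was at 18.6 on the mock array and at 29.0, 29.2 and 41.3 with the hairpins (0.81 ± 0.29). APOA4, an apolipoprotein best known from the intestine, was at a low 0.222 on the mock array and reached 0.707, 0.777 and 0.490 (1.54 ± 0.35). Every hairpin array was above the mock array for all 3 genes, as the choice requires, but APOA1 was closest to the limit with shR-554 and TTR with shR-467.

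APOA4 and APOA1 lie 14871 bases apart by their probes on the minus strand of chromosome 11 (hg19, 116691711-116691770 and 116706641-116706700). The only other bright probe between theirs reads APOC3, which slows the clearance of triglyceride-rich particles. It was at 9.51 on the mock array and 15.6, 10.999 and 12.3 with the hairpins, so its differences of 0.71, 0.21 and 0.38 missed the limit with shR-554 and shR-749. APOA5, a further gene of this cluster, differed by 1.09, -0.18 and 0.90. All 4 genes of the cluster lay above mock with shR-467 and shR-749, and shR-554 gave the lowest value in each except APOA4.

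FGA, the alpha chain of fibrinogen, was the most uneven of the secreted members. Its level was 0.448 on the mock array and 0.719, 1.25 and 2.35 with the hairpins, a mean difference of 1.52 ± 0.86. Both further FGA probes met the same limits, with 1.03, 2.59 and 2.86 on one and 0.59, 1.59 and 2.48 on the other, so the 3 probes put the hairpins in the same order. FGG, the gamma chain, is not a member because shR-467 gave 0.52, but it stepped in the same order with 1.09 and 2.46 for the other hairpins. HPX, the plasma carrier of free heme, had another order: 0.616 on the mock array and 1.70, 1.00 and 1.02 with the hairpins (0.96 ± 0.44). C5, the complement component from which the membrane attack complex starts, was the most even, at 1.12 on the mock array and 1.75, 1.70 and 1.71 with the hairpins (0.62 ± 0.02). The other bright genes of terminal complement did not share this: C6 differed by 2.10, -0.45 and 1.16, C7 by -0.74, -0.73 and -0.71, C8A by 0.68, -0.66 and -1.80 and C8B by 0.85, 0.39 and -0.40. The brightest C8G probe stayed between -0.15 and 0.09. C7 was therefore lower with every hairpin by more than 1.5-fold, the opposite side from C5. FGG and the complement genes other than C5 were picked after their values were seen.

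**Figure D2:**
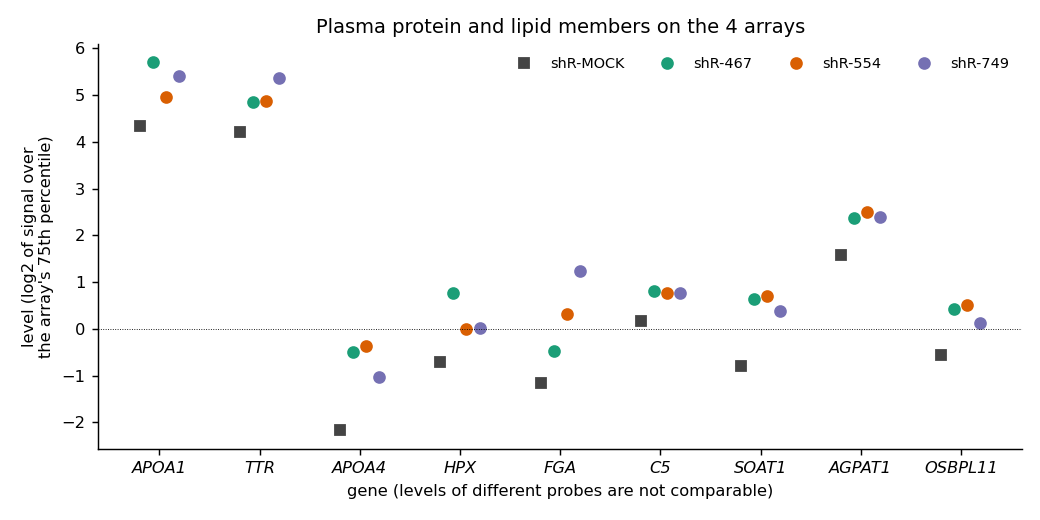
Level on each array (vertical axis, log2 of the signal over the array's 75th percentile) of 9 members that encode plasma proteins or act on lipids (horizontal axis). Squares are the mock array and circles the 3 hairpins. Every circle lies above its square. The 3 hairpins nearly coincide for C5 (SD 0.02) and spread most for FGA (SD 0.86).

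In the lists of genes drawn up for this tissue, 3 of 37 measured secreted plasma proteins (TTR, FGA and HPX) and 2 of 20 apolipoproteins and lipid transport genes (APOA1 and APOA4) were members, with list medians of 0.24 and 0.25 against 0.00 for all genes. One gene of the plasma protein list and none of the lipid transport list was lower with every hairpin. RAB21 was the 1 member among the 26 measured genes of the RAB list, and none of 37 on the Golgi and vesicle traffic list was a member. These lists are not complete: RAB26 and the Golgi SNARE GOSR1 are members that they do not hold. In all, 505 genes of 27 lists were measured and 6 were members, against 0.57% of all genes that met the limits, and 24 lists held 0.

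Lipid enzymes outside these lists were also found. SOAT1, which esterifies cholesterol for storage, was at 0.576 on the mock array and 1.55, 1.62 and 1.30 with the hairpins (1.37 ± 0.17). Its liver counterpart SOAT2 differed by 0.30, 0.02 and 0.52. AGPAT1, which makes phosphatidic acid on the way to glycerolipids, was at 3.01 and reached 5.16, 5.65 and 5.25 (0.83 ± 0.07). OSBPL11, a sterol- and lipid-binding protein of the Golgi and late endosome, was at 0.675 and reached 1.34, 1.42 and 1.09 (0.92 ± 0.20). FAXDC2 (C5orf4 on the array), a hydroxylase related to those of sterol synthesis, gave 1.13, 1.00 and 0.86, and TMEM86B, a lysoplasmalogenase, gave 1.51, 0.63 and 0.99. SOAT1 and OSBPL11 were lowest with shR-749 and AGPAT1 with shR-467, and AGPAT1 was the most even of the 5. OSBPL11, FAXDC2 and TMEM86B, like other members and related genes named below for their role alone, were picked after their values were seen.

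Among signalling genes WNT11, a secreted ligand of non-canonical Wnt signalling, had the highest smallest difference of the members with a RefSeq symbol, an order that depends on the background correction. Its level was 0.0468 on the mock array and 0.139, 0.164 and 0.149 with the hairpins (1.68 ± 0.12), so the 3 hairpins lay close together, at a low signal. After the normexp correction, another way to subtract background, with an offset of 50 and quantile normalization, its mean difference was 0.96 and its smallest 0.91. That put WNT11 below C12orf75, LHX3, NETO2, FAM117A and RPIA. The offset adds 50 units to every corrected signal, which by itself shrinks differences at a low signal. GALR3, a galanin receptor, was uneven, at 2.04 on the mock array and 3.63, 8.06 and 10.2 with the hairpins (1.71 ± 0.78). NETO2, an auxiliary subunit of kainate receptors, was at 0.521 and reached 1.58, 1.31 and 1.89 (1.60 ± 0.27). MAOA, which oxidises serotonin and noradrenaline, was at 1.46 and reached 3.27, 2.65 and 3.88 (1.14 ± 0.27). The glycine transporter SLC6A9 gave 1.09, 1.01 and 1.17. PRNP, the prion protein, is printed in 10 spots, of which 7 to 10 were used on an array, and their SD within an array was 0.03 to 0.08 on the log2 scale. It was at 2.97 on the mock array and 4.73, 5.09 and 5.24 with the hairpins (0.76 ± 0.08). CMTM3, a MARVEL-domain membrane protein, was at 5.62 and reached 9.06, 11.4 and 11.2, and its second probe gave 0.70, 1.11 and 0.93. DUSP23, a phosphatase, lay near the limit with shR-554 at 0.60 while the other hairpins gave 1.37 and 1.15. FIGF (VEGFD), INPP5D, CYLD and ICAM4 were also members. FIGF, INPP5D and CYLD were dim, at 0.0621, 0.0271 and 0.0498 on the mock array. The 2 spots of INPP5D on that array differed by an SD of 0.54. After the normexp correction FIGF, INPP5D, CYLD and ICAM4 all missed the limits.

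RAB21, a GTPase of early endosomes, was at 1.34 on the mock array and 3.37, 3.51 and 3.14 with the hairpins (1.32 ± 0.08). RAB26, a GTPase of secretory granules, was at 2.79 and reached 4.29, 4.62 and 4.54 (0.68 ± 0.05). GOSR1, a SNARE of traffic between the endoplasmic reticulum and the Golgi, gave 0.66, 0.82 and 1.07, and ST3GAL3, a Golgi sialyltransferase, gave 0.70, 0.66 and 0.71 (0.69 ± 0.03). HSPA13, a microsomal chaperone of the HSP70 family, was at 0.547 and reached 1.24, 1.82 and 1.51 (1.46 ± 0.28). ATP13A1, a P-type ATPase of the endoplasmic reticulum, gave 1.06, 1.19 and 1.03, and the phospholipid flippase ATP8A1 gave 0.72, 0.92 and 0.81. SEC63, part of the channel that admits proteins to the endoplasmic reticulum, was at 4.04 and reached 6.52, 6.19 and 6.54 (0.67 ± 0.05). Its partners in that channel lay lower, with mean differences of 0.30 for SEC61A1, 0.07 for SEC61B and -0.09 for SEC61G, while SEC62 was dim and gave 0.91, 0.79 and 0.17. A second, dimmer SEC63 probe gave 0.59, 0.54 and -0.30.

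A few members belong to gut or developmental programmes. SI, the sucrase-isomaltase of the intestinal brush border, was at 0.319 on the mock array and 0.542, 0.783 and 1.38 with the hairpins (1.39 ± 0.68). KRT20, a keratin of intestinal epithelium, was at 0.0334 and reached 0.104, 0.0625 and 0.124 (1.48 ± 0.51). Other intestinal genes lay elsewhere: VIL1 was at 28.1 on the mock array and differed by -0.02, -0.32 and -0.20, CDX2 differed by -0.80, -0.27 and -0.30, and CDH17 by -0.61, -0.63 and -0.84. CDX1 differed by 0.98, 0.06 and 0.10. SI and KRT20 were thus higher while CDH17 was lower than mock by more than 1.5-fold with every hairpin. LHX3, a homeobox gene of the pituitary, was at 0.346 and reached 1.56, 0.928 and 0.862 (1.64 ± 0.47), and HOXA5 gave 0.72, 0.96 and 1.52. MYRF (C11orf9 on the array), a membrane-bound transcription factor, was at 7.50 and reached 16.3, 11.4 and 14.7, and its other probe gave 1.23, 0.67 and 1.36.

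LIN28B, an RNA-binding protein of fetal liver that blocks the maturation of let-7 microRNA, was at 6.33 on the mock array and 10.8, 11.04 and 12.96 with the hairpins (0.87 ± 0.14). ZCCHC11 (TUT4 in RefSeq), the uridylyltransferase that the paralog LIN28A recruits to the let-7 precursor, was also a member. It was at 0.614 on the mock array and 1.40, 1.63 and 1.84 with the hairpins (1.39 ± 0.20). Whether LIN28B and ZCCHC11 act together in these cells was not tested. Both genes were in the same order over the hairpins, lowest with shR-467 and highest with shR-749. The related transferase ZCCHC6 gave 0.03, -0.27 and -0.08 over 10 spots, and the brightest probe of DIS3L2, the exonuclease that removes uridylated let-7 precursors, gave -0.06, -0.12 and -0.02. Another DIS3L2 probe, at a low signal, gave -0.74, -0.72 and -0.44. The microRNA itself was not analysed here.

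Several members act in metabolism or in mitochondria. RPIA, which makes ribose 5-phosphate in the pentose phosphate pathway, was at 2.48 on the mock array and 6.04, 7.48 and 6.90 with the hairpins (1.45 ± 0.16). PRDX3, the mitochondrial peroxiredoxin, was at 4.10 and reached 8.61, 7.66 and 6.84 (0.90 ± 0.17). NT5C3, a pyrimidine nucleotidase, was at 3.58 and reached 6.67, 5.85 and 6.49, and its second probe gave 0.89, 0.77 and 0.91. CRYM, which binds thyroid hormone in the cytosol, gave 0.86, 0.73 and 1.48. SLC25A29, a mitochondrial carrier of basic amino acids, gave 0.64, 0.80 and 1.11, and CISD2, an iron-sulfur protein of the outer mitochondrial and endoplasmic reticulum membranes, gave 0.63, 1.03 and 0.84. HPGD, which inactivates prostaglandins, was dim and gave 1.42, 0.78 and 0.91. C12orf75 and FAM117A, whose functions are poorly known, were among the members farthest from mock, with mean differences of 1.75 ± 0.23 and 1.52 ± 0.24.

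The other members with a gene symbol were of mixed roles. E2F5, a repressor of the E2F family, gave 0.73, 0.62 and 0.69, and PCOLCE, which enhances the processing of procollagen, gave 1.05, 1.18 and 1.13. SLU7, a splicing factor, gave 0.63, 1.01 and 0.83. ANO6, a scramblase and ion channel, gave 1.18, 0.82 and 1.07, TRAK2, a kinesin adaptor, 0.64, 0.65 and 0.93, and TSPAN12, a tetraspanin of Norrin signalling, 0.62, 0.63 and 1.095. TMEM151A stepped up over the hairpins, at 0.258 on the mock array and 0.501, 0.914 and 1.70, and had the largest SD of all members (0.88). LOC284837 (the non-coding RNA AATBC in RefSeq) gave 1.59, 1.54 and 1.23. It was dim at 43.4 scanner units on the mock array. Its mean difference of 1.46 became 0.76 after the normexp correction, and it met the limits. DKFZP434I0714 (MIR4453HG in RefSeq) was among the most even at 0.65, 0.67 and 0.62. DKFZP434I0714 had a mock signal of 26.9 scanner units, 1.27 times the lowest one called well above background. After the normexp correction its mean difference was 0.26 and it missed the limits. CECR6, like TMEM151A, ended highest with shR-749, at 1.13, 1.44 and 2.25. It was dim at 30.2 units on the mock array. Its mean difference of 1.61 became 0.75 after the normexp correction, and it missed the limits. Over all 119 members the mean difference ran from 0.62 in C5 to 2.65 in A_33_P3276927. ENST00000367638, a transcript whose probe lies 810162 bases from that of SOAT1, gave 0.77, 0.64 and 1.00. Its mock signal was 27.3 units, and after the normexp correction its mean difference was 0.33 and it missed the limits. CCDC25, whose probe lies 897756 bases from that of a lincRNA member, gave 0.89, 0.81 and 1.03. After that correction CCDC25 missed the limit with shR-554, at 0.57.

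Probes without a named gene headed the ranking. The array measures each transcript with a 60-base probe, and the sequences of the 3 leading unnamed transcripts are shown because these transcripts have no gene name. BM977558 and AW303581 are named for expressed sequence tags, and A_33_P3276927 has only its probe name. By the array's annotation on hg19 they lie at chr15:83105063-83105122 (minus strand), chr6:30922580-30922639 (plus strand) and chr21:18889330-18889389 (minus strand).
BM977558: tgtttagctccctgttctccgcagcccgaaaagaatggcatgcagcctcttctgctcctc
AW303581: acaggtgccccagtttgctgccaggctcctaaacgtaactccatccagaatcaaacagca
A_33_P3276927: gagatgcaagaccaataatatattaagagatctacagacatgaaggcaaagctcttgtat
BM977558 was at 0.0466 on the mock array and 0.293, 0.199 and 0.210 with the hairpins, AW303581 at 0.0938 and 0.759, 0.337 and 0.370. A_33_P3276927 was at 0.0199 and 0.0839, 0.124 and 0.185, and shR-467 gave its lowest value but the highest value of the other two. Its mock signal of 22.3 scanner units was 1.05 times the lowest signal called well above background, and after the normexp correction its mean difference was 1.16 in place of 2.65. The mean of BM977558 was then 1.38 in place of 2.31 and that of AW303581 1.63 in place of 2.28.

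Small RNAs of the nucleus appeared as SNORA23, SCARNA16 and RNU12. SNORA23, which guides pseudouridylation, was at 0.121 on the mock array and 0.306, 0.665 and 0.266 with the hairpins (1.64 ± 0.71). SCARNA16, a small RNA of Cajal bodies, was at 0.182 and reached 0.361, 0.601 and 0.416 (1.30 ± 0.38). The lincRNA probe A_19_P00315843 was at 0.187 and reached 0.413, 0.657 and 0.430 (1.39 ± 0.37). The probes of the last pair have the same 60 bases and the same position, chr17:75085516-75085575, so they are a single measured sequence that counts as 2 of the 119 members.
SCARNA16: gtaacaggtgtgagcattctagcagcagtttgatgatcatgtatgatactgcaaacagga
A_19_P00315843: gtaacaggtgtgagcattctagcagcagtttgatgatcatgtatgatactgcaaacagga
SNORA23: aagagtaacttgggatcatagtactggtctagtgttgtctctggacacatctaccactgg
SNORA23 and both of these probes were highest with shR-554. No other pair of members shared 20 or more bases of probe sequence. RNU12, the U12 small nuclear RNA of the minor spliceosome, was dim at 0.0428 and gave 0.65, 0.64 and 0.71 (0.67 ± 0.04). Its probe is placed on chromosome X by the array's annotation and the gene on chromosome 22 by RefSeq, so the measured copy is uncertain. The same holds for FAM45A, placed on X but on 10 in RefSeq, and for ACBD7, placed on Y but on 10.

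One lincRNA member, read by probe A_19_P00809313, is named for an interval that spans the gene of NEAT1, the RNA around which nuclear paraspeckles form. NEAT1 is made as a short form from the start of the gene and as a long form that runs through all of it. The member's probe lies 22751 bases from the left edge of the interval and was at 0.736 on the mock array and 1.91, 1.96 and 1.61 with the hairpins (1.31 ± 0.16). Another distal probe, at 13240 bases, gave 1.05, 0.88 and 0.54. Nearer the start, a pair of probes at 3388 and 3695 bases had mean differences of -0.65 ± 0.40 and -0.59 ± 0.33, and a probe at 2019 bases -0.02 ± 0.20. The probe on the opposite strand gave 0.08 ± 0.20. The member probe and the probe at 3695 bases follow because they lie in 1 interval and lay on opposite sides of mock, at chr11:65212941-65213000 and chr11:65193885-65193944 on hg19, both on the plus strand.
A_19_P00809313: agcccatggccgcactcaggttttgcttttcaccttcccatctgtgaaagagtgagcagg
A_19_P00321332: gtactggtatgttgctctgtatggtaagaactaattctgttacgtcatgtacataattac

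On chromosome 15, 3 members lie within 123 kb of each other on the plus strand, in the imprinted Prader-Willi region, where a long host transcript carries clusters of small nucleolar RNAs. PAR1 (PWAR1 in RefSeq) gave 0.69, 1.28 and 1.00, a lincRNA probe at 25259816-25259875 gave 0.62, 1.01 and 1.21, and lincRNA probe A_19_P00320136 gave 0.59, 0.61 and 1.76. The last was at 0.608 on the mock array and 0.915, 0.928 and 2.05 with the hairpins. After the normexp correction none of the 3 met the limits: the mean difference was 0.49 for PAR1 and 0.48 for the probe at 25259816-25259875, and A_19_P00320136 gave 0.54, 0.51 and 1.66. Of the 32 other bright probes on the plus strand of this window, 21 were above mock with every hairpin, and their median differences over the 3 hairpins in order were 0.29, 0.18 and 0.71. With shR-749 alone 20 of the 32 reached 1.5-fold, against 1 with shR-467 and 2 with shR-554. The 16 bright probes on the minus strand had medians of 0.31, 0.02 and 0.14, and 6 were above mock with every hairpin. Of all genes measured, 20.4% were above mock with every hairpin. SNRPN, of the same region, gave 0.26, 0.01 and 0.22. The sequences of the 2 members with the largest and the smallest value for shR-749 in this window are shown, at chr15:25333923-25333982 and chr15:25383063-25383122.
A_19_P00320136: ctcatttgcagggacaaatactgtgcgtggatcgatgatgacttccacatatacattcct
PAR1: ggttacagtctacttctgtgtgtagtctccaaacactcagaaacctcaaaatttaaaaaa

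**Figure D3:**
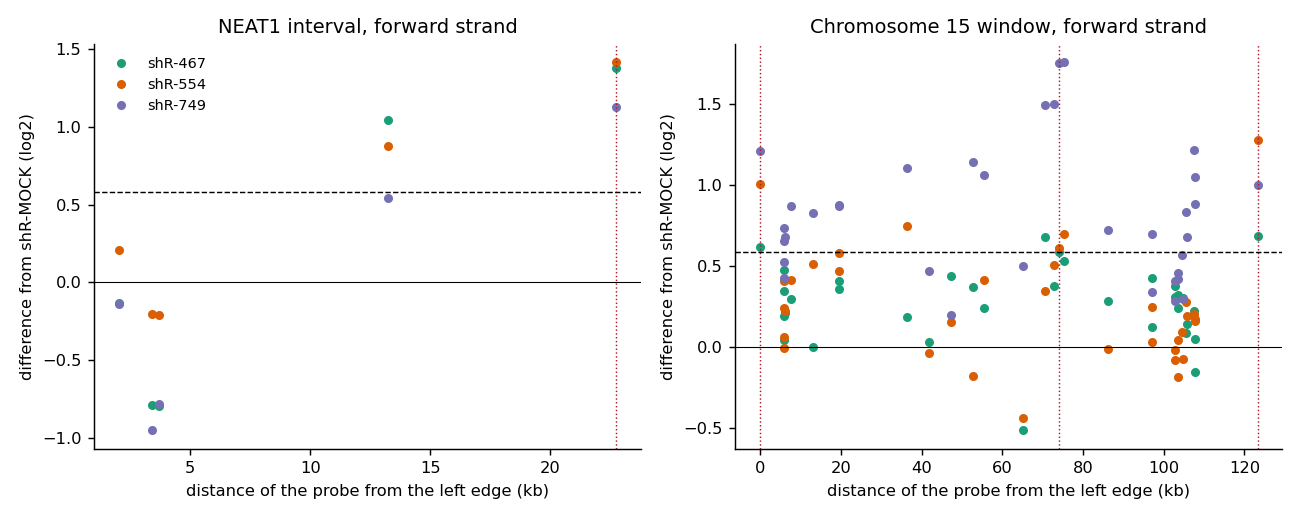
Difference from the mock array (log2, vertical axis) of the bright forward-strand probes described in the NEAT1 interval (left) and in the chromosome 15 window between the outermost members (right), against the distance from the left edge in kb. Colours are the hairpins, dotted red lines mark members and the dashed line marks 1.5-fold. In the NEAT1 interval the distal probes at 13240 and 22751 bases lie above 0 and the probes at 3388 and 3695 bases below it. On chromosome 15 the other bright probes had a median of 0.71 with shR-749, against 0.29 and 0.18 with the other hairpins.

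Inside the intervals of the 25 lincRNA members 29 other bright probes read the opposite strand. Of these, 0 met the limits, and their median mean difference was 0.14. Beside the 0.57% of all genes that met the limits, 29 probes are too few for a count of 0 to show anything. On the same strand 4 bright probes are members under another name, described next. Of the 41 that are not members 0 met the limits either. Their median was 0.33, but 26 of them lie in 1 interval on chromosome 6, where mean differences ran from 0.09 to 0.51. The probes of another pair of members, LOC401397 and a lincRNA locus, sit 221 bases apart on the minus strand of chromosome 7. LOC401397 was at 6.21 on the mock array and 9.68, 11.9 and 11.9 with the hairpins, a difference of 0.64, 0.93 and 0.94, and the lincRNA probe gave 0.67, 1.05 and 0.96, so both were lowest with shR-467. A pair of lincRNA loci on chromosome 2, with probes 8356 bases apart, likewise overlaps on 1 strand, with mean differences of 1.30 ± 0.28 and 0.94 ± 0.16. The first probe had a mock signal of 21.8 scanner units, 1.03 times the lowest signal called well above background. After the normexp correction the means of the pair were 0.49 and 0.59, and neither met the limits. Members of such pairs share a region and are not independent. MGC23284 and a lincRNA locus on chromosome 16 lie 413227 bases apart, with mean differences of 1.31 ± 0.29 and 1.28 ± 0.41. After the normexp correction MGC23284 gave a mean of 1.02 and met the limits. The lincRNA locus, at 35.9 scanner units on the mock array, then gave 0.59 and missed them. In all, 13 pairs made of 22 members lay within 1 Mb of each other. They include the SCARNA16 pair, which shares its probe sequence, and the pairs of the chromosome 15 window. How many such pairs other genes measured would give was not counted, so the number shows no clustering. Between SLC6A9 and ST3GAL3, 65543 bases apart on chromosome 1, the window held 8 bright probes, of which only these 2 met the limits.

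Where a member had a second bright probe, the probes agreed for some members and disagreed for others. Of the 119 members, 17 had at least 1 further bright probe, 21 probes in all. Of these 21, 9 met the limits, beside 0.57% of all genes, and 15 were above mock with every hairpin, beside 20.4%. Another 3 were below mock with every hairpin. For 8 members (APOA1, FGA, MYRF, CMTM3, NT5C3, LRRC31, LOC401397 and ADAMTSL4) at least 1 other probe met the limits, while for 9 none did. C20orf196 (SHLD1, a subunit of the shieldin complex of DNA repair) is the clearest case of disagreement. Its member probe was at 0.231 on the mock array and 0.363, 1.09 and 0.827 with the hairpins, but its other probes gave -0.34, -0.31 and -0.34, and -0.23, -0.50 and -0.86. SHQ1, an assembly factor of box H/ACA particles, gave 0.68, 0.77 and 1.37 on the member probe and -0.06, -0.64 and -0.21 on the other, which the annotation places on chromosome 10 while the member probe lies on chromosome 3. The second LOC401397 probe is likewise placed on chromosome 20 and not 7. TRIM37, a ubiquitin ligase, gave 1.27, 1.09 and 1.195 on a probe printed in 2 spots, and -0.10, 0.19 and 0.20 on the other. For MRS2, MGC23284, ST3GAL3, FAM45A and the chromosome 6 lincRNA locus the other probes were also above mock with every hairpin but missed the limits. The third ADAMTSL4 probe gave 0.39, 0.31 and -0.23. Which transcripts each probe reads was not analysed here, so for these genes the value belongs to the probe and not to the gene.

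**Figure D4:**
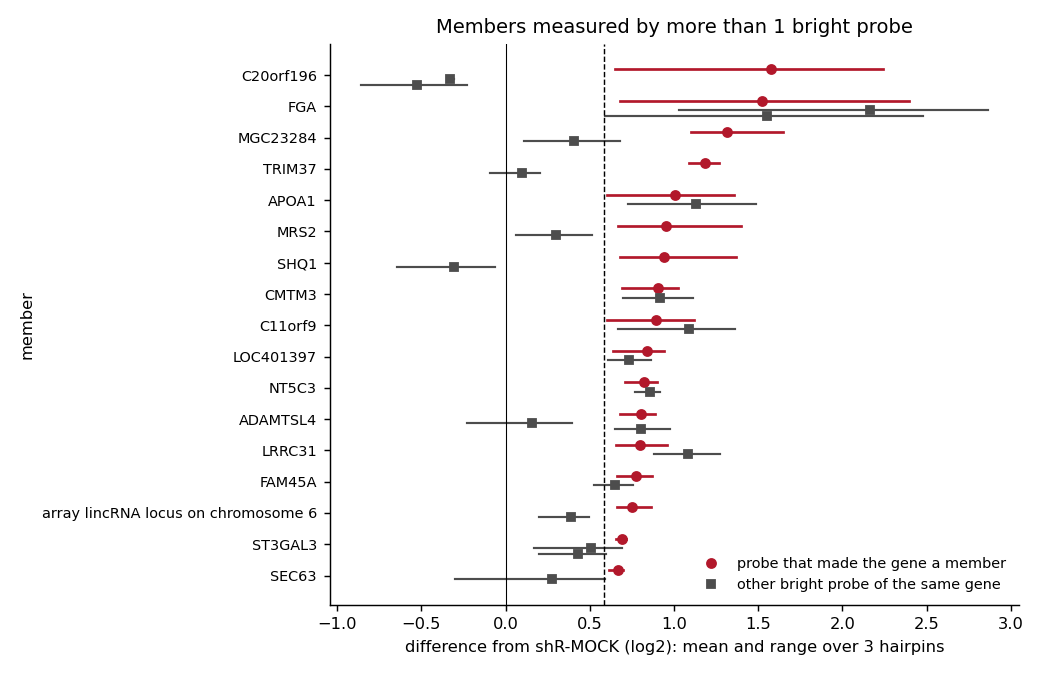
Mean and range over the 3 hairpins of the difference from the mock array (log2, horizontal axis) for the 17 members with more than 1 bright probe (vertical axis). Red circles are the probe that made the gene a member and grey squares its other bright probes. The dashed line marks 1.5-fold. The grey squares of C20orf196 and SHQ1 lie below 0, and those of FGA, APOA1, MYRF (shown as C11orf9), CMTM3, NT5C3, LRRC31 and LOC401397 lie to the right of the dashed line.

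Just inside the limit of 0.585 on the log2 scale, the smallest differences were 0.59 for RPS16P5, NAALADL1, a lincRNA locus on chromosome 8 and the chromosome 15 probe A_19_P00320136, and 0.60 for DUSP23. Just outside, and so not members, CREB3L3, EVI5, C12orf76, WASF1 and KRT3 all had a smallest difference of 0.58. CREB3L3, a liver transcription factor of the endoplasmic reticulum membrane that acts on APOA4 and other lipid genes, gave 0.70, 0.58 and 0.99. The members shade into the other genes, and the limit marks no gap.

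Many members were dim, that is, bright by the mark of the scanner software but low in signal. The median mock signal was 273 scanner units, against 434 for all genes, and 41 members were under 100 on the mock array. The lower quartile was 58.2 units for the members and 114 for all genes. The choice puts the mock array lowest, so a low mock signal is in part a property of the choice. Each gene's lowest ratio to the array's lowest signal called well above background had a median of 12.9 in members and 13.9 in all genes. The lowest signal of a member was under 2 times the lowest signal called well above background in 15 members, or 12.6%, beside 13.04% of all genes. In every member the mock array had the lowest level, as the choice requires. With the normexp correction and an offset of 50, followed by quantile normalization, 56 of the 119 members met the limits. Of the 41 members under 100 scanner units 5 were kept, and their median mean difference changed from 1.00 to 0.51. The offset adds 50 units to every corrected signal and so shrinks log2 differences at such low signals. The losses among dim members are therefore in part fixed by this setting, and do not show how much of a difference is background. Of the 51 members at 100 to 1000 units 32 were kept, and of the 27 above 1000 units 19 were kept. All 119 members were still above mock with every hairpin, which their choice at 1.5-fold or more above mock on the same arrays makes likely. WNT11, APOA4, HPX, FGA, SOAT1, RAB21, ZCCHC11, LIN28B, SI, GALR3 and BM977558 were kept, while APOA1, TTR, C5, KRT20, C20orf196 and the 3 members of the chromosome 15 window were not. In 40 members, all under 100 scanner units, the mean difference was over 1.5 times its value after this correction, which the offset makes likely. For APOA1 and TTR the mean difference hardly moved, from 1.01 to 1.00 and from 0.812 to 0.809, so there 1 hairpin fell short: shR-554 at 0.580 for APOA1 and shR-467 at 0.55 for TTR.

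**Figure D5:**
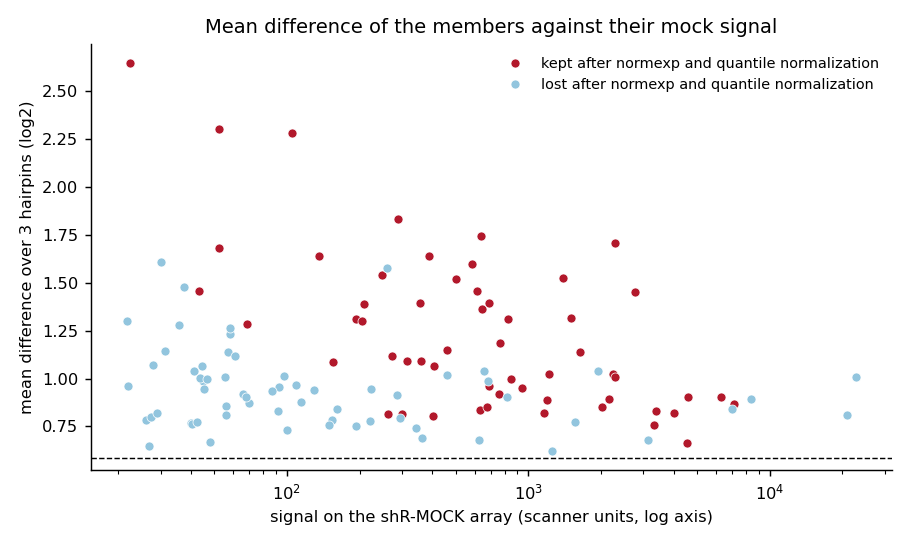
Mean difference over the 3 hairpins (log2, vertical axis) of the 119 members against their signal on the mock array (scanner units, log axis). Red members met the limits after normexp correction and quantile normalization as well, and blue members did not. Of the 41 members under 100 units 5 are red, and of the 27 above 1000 units 19 are red.

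The promoters were read in the RefSeq windows of GRCh38.p14, from 250 bases before to 50 after the start, for 58 members with 77 windows. A CCAAT box (letters CCAAT, either strand) was in 37.7% of the members' windows, beside 35.0% of those of all genes measured and 34.6% of all windows. The GC box GGGCGG was in 64.9%, beside 63.3% and 45.0%. The TATAAA box was in 6.49%, beside 7.23% and 11.5%, and the E-box CACGTG in 9.09%, beside 9.18% and 7.26%. The antioxidant element TGACNNNGC was in 7.79% of the members' windows, beside 14.4% and 13.3%, a difference that was not tested. Of the 77 windows, 1 held the cyclic AMP element TGACGTCA, or 1.30%, beside 2.66% and 1.85%. The AP-1 letters TGANTCA were in 3 windows, or 3.90%, beside 5.43% and 7.71%. The letters TTCNNNGAA were in 3.90%, beside 6.34% and 7.66%, and TGATGNAA in 3.90%, beside 2.14% and 3.62%. These differences were not tested either. None of these matches was tested as a site.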

How the data were processed

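Total RNA of Hep3B cells was labelled with Cy3 and hybridised to 4 one-colour Agilent arrays with 42405 probes other than controls. The authors deposited the scanner output of Feature Extraction 10.7.1.1, whose spot intensity is already background-subtracted, with marks for outlier spots and for signals well above background. A second table from the authors holds log2 values whose median was 6.37 on every array. How it was normalized is not given in the sources used here, and it served as an alternative. It correlated with the scanner values at r of 0.999 or more on each array.

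Here log2 of the processed signal minus the array's 75th percentile (1120 for mock, and 978, 1390 and 1130 for the hairpins in order of position) was averaged over a probe's unmarked spots. Between 67.6% and 73.6% of spots were well above background, none was saturated, and the small number of arrays limits the precision. Only descriptions were made, with no test. The members and all lists were chosen with earlier results of these data known. A gene took its bright probe with the highest mean. Members were named when among the 12 with the largest smallest difference, the 12 with the highest mean level, the 4 with the smallest or the 4 with the largest SD, or the 5 closest to the limit (with 5 genes outside it), when in a list, when another bright probe missed the limits, or when within 1 Mb of another member. Others were named by role after their values were seen. Symbols were looked up in RefSeq, which matched 78 of the 119 members, and some genes keep the array's older name here. Of the members, 117 have an hg19 position from the array's annotation. One probe of the NEAT1 interval is not reported here. The member rule and the quantile step were tried on simulated levels, with 200 genes raised 4-fold over little noise. So large a rise could hardly be missed. Spot marks, the filter, the scaling and the normexp correction were not simulated. Python 3.11.15, numpy 2.4.6, pandas 2.3.3, matplotlib 3.10.9, R 4.3.3 and limma 3.58.1 were used. The alternatives are given in the closing section.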

Additional observations from a re-analysis of the deposited data

How the results depend on the processing

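Of 119 genes, 110 were kept under quantile normalization, 112 under median scaling, 111 in the authors' table, 111 with the mean over a gene's bright probes and 104 with signals at least 2 times the lowest one well above background. Raising low signals, keeping outlier spots and wider filters kept all 119, but these settings could hardly do otherwise. The signals that were raised lay below those of bright probes, 1 member had an outlier spot, and wider filters only add probes. With normexp correction and quantile normalization the count was 59 genes, 56 of them members, and the median mean difference changed from 0.99 to 0.77. The offset of 50 units in this setting shrinks the differences of dim genes by construction. With no filter on dim probes 272 genes met the limits, and at 2-fold 27 genes did, all of them members as a stricter limit requires. With 1 hairpin left out, 216 to 290 genes met the limits with the remaining pair: 290 without shR-467, 251 without shR-554 and 216 without shR-749, and the members' median stayed between 0.98 and 1.00. In all, 50 of the 119 members were kept under each of the 10 alternatives at 1.5-fold with 3 hairpins. The settings that could hardly change a member are among the 10. The mean difference of SHQ1 turned to -0.31 under quantile normalization, where its other probe became the brightest. Of the other values of the 58 genes named by rule, 36 moved by more than the SD over the hairpins and 710 did not. Leaving out 1 hairpin or raising low signals could not move a value that far, so part of the 710 was fixed beforehand. A block for slide and scan was not run because all arrays share both. No paired analysis was possible because the mock group has 1 array and the replicate numbers name different hairpins.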

Other observations

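Among lists without members, the 12 measured neuronal and synaptic genes had the highest median mean difference, 0.44, and 2 of them averaged 1.5-fold or more above mock. Of 21 measured genes of cholesterol and fatty acid synthesis 0 were members, the median was 0.34 and 3 genes averaged 1.5-fold or more above mock, beside 2.34% of all genes. The 21 chemokines and cytokines had a median of -0.52, with 9 averaging at least 1.5-fold below mock, beside 2.87% of all genes, and 2 lower by 1.5-fold with every hairpin, beside 0.471%. The 26 G1/S and 19 G2/M cell cycle genes had medians of -0.22 and -0.17, and 0 of each were members, beside 0.57% of all genes that met the limits. The 21 genes of the unfolded protein and integrated stress response had a median of 0.06 and the 12 heat shock genes one of 0.02. All genes measured had a median of 0.00. No list was tested, and at a share of 0.57% a list of this size with 0 members shows nothing about its genes.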
